A study of Bombus terrestris with 25 samples.

Results

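Translation factors and aminoacyl-tRNA synthetases were followed in the abdomens of queens of Bombus terrestris, a bumble bee. Members were all genes whose product name held tRNA synthetase, tRNA ligase, translation initiation factor, elongation factor or release factor and did not hold the word transcription. This found 35 of the 3861 genes of the deposited count table. Of these, 33 belonged to the translation machinery or regulate it, and 2 were caught by the search words alone. The pair were RNA polymerase II elongation factor ELL2-like and negative elongation factor D-like, which act in transcription. They are described apart but stay in all counts and shares of the 35 members.

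PolyA RNA was measured by RNA-seq in eviscerated abdomens with attached fat bodies, 1 queen per library, in 5 groups of 5 mated queens. The 5 queens of a group were each of a different genetic line; 4 lines were in every group, 1 was in every group but Mated, and 1 was in Mated alone. Founder post diapause queens, 4 months old, had spent 9 to 10 weeks at 4 C, had then been brought to room temperature and daylight, and were sampled about 1 month later, when they had laid eggs and founded a colony. Founder post CO2 queens, 1.5 months old, were egg layers sampled about 1 month after 2 anaesthesias with pure CO2 given 24 h apart. Diapause queens were sampled at the end of 9 to 10 weeks at 4 C, and their age is 3 months in the sample labels and 2.5 months in the series text. CO2-treated queens were 5 to 10 days old and were sampled 24 h after the treatment, and Mated queens were 5 to 10 days old with neither treatment. Founders therefore differed from the queens they were compared with in age, time since treatment and egg laying together. Founder post diapause queens also differed from Diapause queens, which were still at 4 C, in temperature. These differences cannot be told apart here.

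Protein synthesis starts when initiation factors place the small ribosomal subunit and the initiator tRNA on a capped mRNA. Elongation factors then deliver charged tRNAs, and aminoacyl-tRNA synthetases charge each tRNA with its amino acid, with separate or shared enzymes for the cytosol and the mitochondrion. The insect fat body, which combines storage and biosynthesis, makes the yolk protein vitellogenin in large amounts in egg-laying females, and insects in diapause are known for lowered protein synthesis.

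The table held 22679 exon-sized intervals, and a library's total in it ran from 534806 to 4057781 counts. CO2-treated replicate 3 and Mated replicate 2 were shallow, with 534806 and 586405 counts, and the other 23 libraries had at least 2432559. Diapause replicate 1 lay outside the range of the other 4 diapause libraries in 23 of the 35 members, above it in 18 and below it in 5, and within the range of the Mated libraries in 26. It was not alone in this: Founder post CO2 replicate 1 and Mated replicate 2 were at the top or bottom of their group in 25 members, Founder post diapause replicate 1 and Mated replicate 5 in 24, and Founder post diapause replicate 2 and CO2-treated replicate 3 in 23. Calls are given with and without the shallow pair and Diapause replicate 1, a choice made with their values known, and each library was also left out singly. Of the product-name lists of cell markers, the 9 fat body genes summed to 450 to 1269 counts per 1000000 counts of the table (CPM) in Founder post diapause, 339 to 2356 in Founder post CO2, 13660 to 25620 in Diapause, 2396 to 26680 in CO2-treated and 2441 to 57600 in Mated libraries. None of these 9 genes was at 0 in any library. No member interval overlapped an interval of another gene of the table, genes outside the table were not checked, and all intervals of a member lay on 1 scaffold.

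Members together made up 1.00 ± 0.17% of a library's counts in Founder post diapause and 1.05 ± 0.20% in Founder post CO2 queens, against 0.662 ± 0.175% in Diapause, 0.774 ± 0.112% in CO2-treated and 0.646 ± 0.120% in Mated queens (SD, n = 5 each). The ranges were 0.813 to 1.23% post diapause and 0.783 to 1.33% post CO2, against 0.516 to 0.858% in Diapause, 0.682 to 0.940% in CO2-treated and 0.481 to 0.785% in Mated libraries, so that founder and non-founder libraries overlapped. In such bulk samples fewer cells of a type and less RNA per cell cannot be told apart. Per kilobase of counted interval, the mean level was highest for elongation factor 1-delta-like in each of the 5 groups, with 1081 CPM per kb in Founder post diapause, 874 in Founder post CO2, 488 in Diapause, 472 in CO2-treated and 475 in Mated queens. The next highest mean was that of elongation factor 1-beta-like in Founder post diapause (564), of eIF3 subunit K-like in Founder post CO2 (521), and of the eIF4E-binding protein 2-like member in Diapause (243.5), CO2-treated (262) and Mated queens (278). These ranks are of group means and were not tested. In CO2-treated queens the eIF4E-binding protein 2-like member, at 262 ± 114, and elongation factor 1-beta-like, at 259.8 ± 70.3 CPM per kb (SD, n = 5), did not differ beyond their spread. Nor did elongation factor 1-beta-like and eIF3 subunit K-like in Founder post diapause (564 ± 367 and 548 ± 242) or in Founder post CO2 (413 ± 288 and 521 ± 550). Founder post CO2 replicate 1 had 996 CPM of subunit K-like, where the group's median was 159. The lowest mean was that of the mitochondrial seryl-tRNA synthetase in Founder post diapause (4.09), of the cytosolic leucyl-tRNA synthetase in Founder post CO2 (6.81), and of the cytosolic aspartyl-tRNA synthetase in Diapause (1.995), CO2-treated (3.57) and Mated queens (2.44). In Founder post CO2 the leucyl enzyme, at 6.81 ± 5.02, and the mitochondrial seryl enzyme, at 7.48 ± 4.78 CPM per kb, did not differ beyond their spread. The same held for the aspartyl and leucyl enzymes in Diapause queens (1.995 ± 0.90 and 2.34 ± 0.62).

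**Figure D1:**
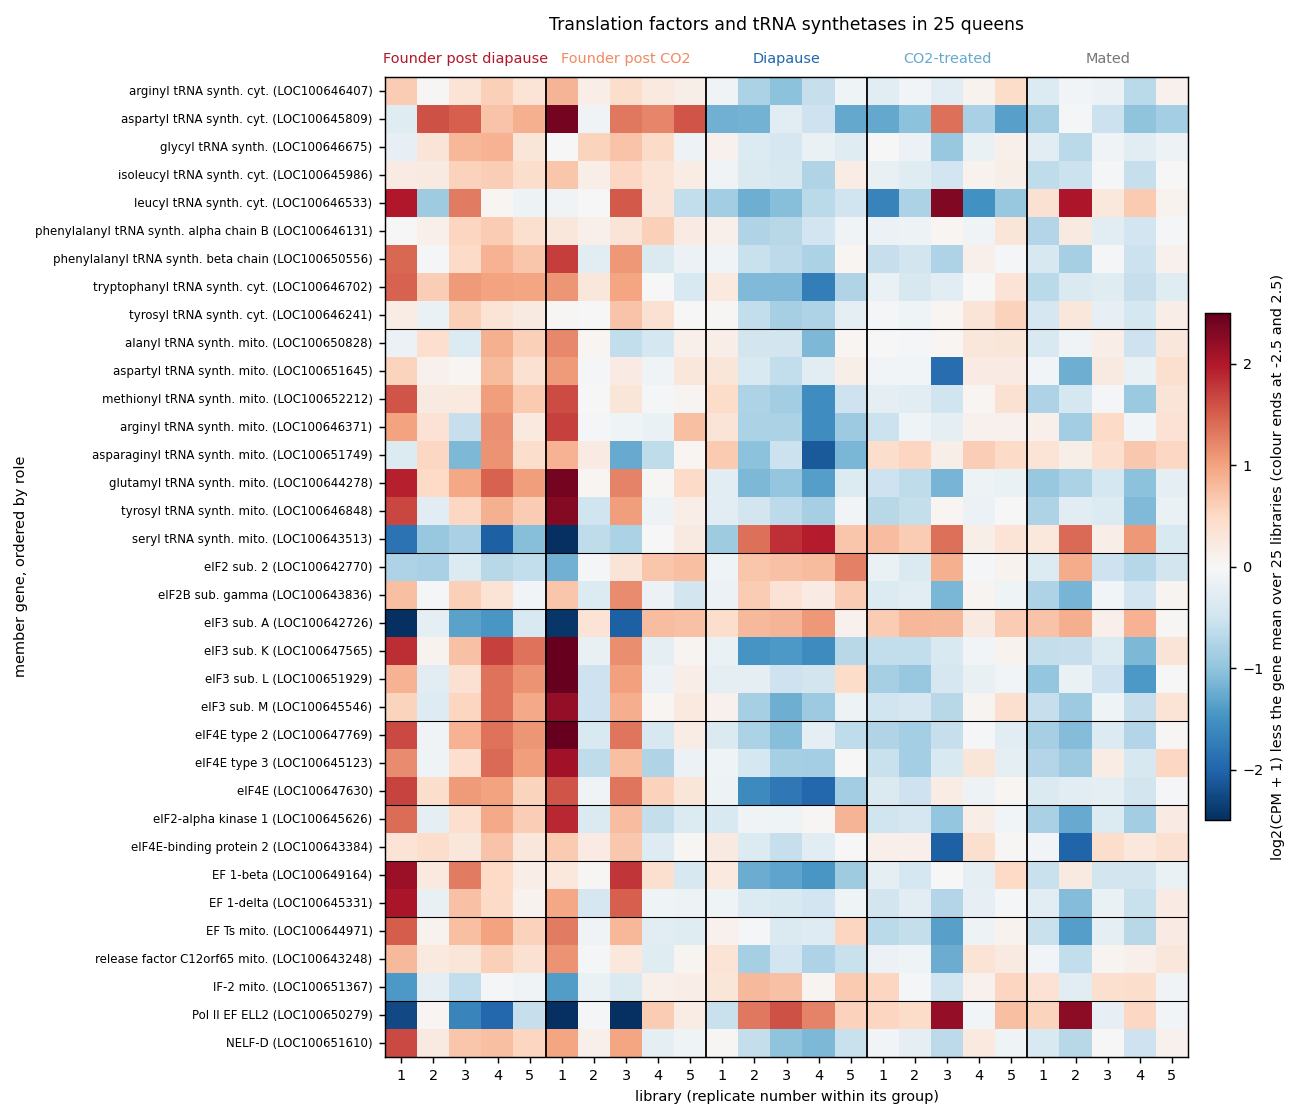
Rows are the 35 members ordered by role and columns are the 25 libraries by group. Colour gives log2(CPM + 1) less the gene's mean over all libraries, so that red is above and blue below that mean. Most rows are red in most of the founder libraries, while the mitochondrial seryl-tRNA synthetase, eIF3 subunit A, IF-2 and ELL2 rows are blue in several of them, and Diapause replicate 1 looks unlike the other diapause columns.

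The comparison of Founder post diapause with Diapause queens asks which members differ between a colony founder and the queen still in the cold. Members were mostly higher in founders: 23 rose, 5 fell and 7 did not pass the test. These counts include the 2 transcription proteins, of which negative elongation factor D-like rose and ELL2-like fell. Among the translation members, all 9 cytosolic synthetases and all 3 cap-binding eIF4E proteins rose, by 1.60 to 4.51 fold. The largest of these changes, that of the cytosolic aspartyl-tRNA synthetase, rested on few reads. eIF3 subunit A, eIF2 subunit 2, mitochondrial IF-2 and the mitochondrial seryl-tRNA synthetase fell. The test was edgeR's quasi-likelihood test over all 3793 genes kept by a filter on low counts, which all 35 members passed. Calls required an adjusted p under 0.05, by the Benjamini-Hochberg method. In this comparison 80.9% of all tested genes were called, so the 28 members called, 80.0%, were no more than the background. By direction, 65.7% of members rose, against 40.2% of all genes, and 14.3% fell, against 40.6%. The median log2 fold change was 0.88 for the members and 0.28 for all genes tested.

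Of the cap-binding proteins, eIF4E-like (LOC100647630; scaffold Group10.1, 778995 to 782191 in the deposited coordinates, whose build is not named) recognises the mRNA cap and recruits the rest of the initiation complex. It had 586, 246, 380, 364 and 264 CPM in Founder post diapause replicates 1 to 5, against 164, 59.4, 51.2, 45.4 and 98.8 CPM in Diapause replicates 1 to 5. All founders lay above all diapausing queens, of which replicate 1 was the highest. The difference was 4.38 fold (log2 fold change 2.13 ± 0.36 SE, edgeR adjusted p = 4.54e-05), on both of its intervals. In queens of the other route, eIF4E-like had 536, 170, 459, 267 and 223 CPM in Founder post CO2, against 140, 126, 205, 166 and 186 CPM in CO2-treated queens. Here the lowest founder lay within the CO2-treated range, and the gene was called (log2 fold change 1.01 ± 0.35 SE, edgeR adjusted p = 0.0360). Mated queens, with 130 to 175 CPM, lay in the range of the CO2-treated queens and above 4 of the 5 diapausing ones.

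The eIF4E type 2-like protein (LOC100647769; scaffold Group4.5, 7512719 to 7513159), whose mammalian and fly counterpart binds the cap without recruiting the scaffold protein eIF4G and lowers translation, had 113, 33.2, 65.3, 91.8 and 77.1 CPM in Founder post diapause, against 27.4, 20.1, 16.4, 30.2 and 22.4 CPM in Diapause queens. The groups did not overlap, although the lowest founder was close to the highest diapausing queen (log2 fold change 1.70 ± 0.49 SE, edgeR adjusted p = 0.00347). In Founder post CO2 queens it had 266, 26.9, 90.7, 26.5 and 40.6 CPM, against 20.7, 19.2, 23.4, 34.7 and 28.9 CPM in CO2-treated queens. Founder replicate 1 was far above the rest, the groups overlapped, and the call (log2 fold change 1.82 ± 0.49 SE, edgeR adjusted p = 0.0115) was lost without that library. The type 3-like member (LOC100645123), an atypical cap-binding protein in mammals, had 160 to 463 CPM in Founder post diapause and 95.3 to 170 CPM in Diapause queens (log2 fold change 1.297 ± 0.45 SE, edgeR adjusted p = 0.0120).

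Members of eIF3, the large scaffold on the small ribosomal subunit, moved in opposite directions. Subunit K-like (LOC100647565; scaffold Group1.5, 2919686 to 2920843), a peripheral subunit, had 550, 160, 252, 495 and 388 CPM in Founder post diapause, against 135, 54.2, 55.2, 50.4 and 93.8 CPM in Diapause queens, with no overlap (log2 fold change 2.25 ± 0.50 SE, edgeR adjusted p = 0.000459). Subunit M-like (LOC100645546) had 194 to 618 CPM in founders and 104 to 262 CPM in diapausing queens, with overlap (log2 fold change 1.22 ± 0.43 SE, edgeR adjusted p = 0.0122). Subunit A-like (LOC100642726; scaffold Group7.1, 2832367 to 2839271), the core subunit that holds the complex together, ran the other way. It had 34.8, 245, 114, 106 and 224 CPM in Founder post diapause, against 395, 509, 527, 614 and 315 CPM in Diapause queens. Every founder lay below every diapausing queen, and founder replicate 1 was lowest (log2 fold change -1.71 ± 0.51 SE, edgeR adjusted p = 0.00443). Subunit L-like (LOC100651929) had 220 to 685 CPM in founders and 188 to 370 CPM in diapausing queens and was not called (log2 fold change 0.95 ± 0.45 SE, edgeR adjusted p = 0.0573).

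Of the factors that bring in the initiator tRNA, eIF2 subunit 2-like (LOC100642770; scaffold Group12.2, 4086731 to 4093187) is the beta subunit of the GTP-binding eIF2 complex. It had 229, 223, 310, 243 and 256 CPM in Founder post diapause, against 362, 632, 649, 674 and 942 CPM in Diapause queens. Every founder lay below every diapausing queen (log2 fold change -1.37 ± 0.37 SE, edgeR adjusted p = 0.00199), lower on each of its 6 intervals. The gamma subunit of eIF2B (LOC100643836), the exchange factor that reloads eIF2 with GTP, had 89.8 to 158 CPM in founders and 85.1 to 147 CPM in diapausing queens and was not called (log2 fold change -0.02 ± 0.32 SE, edgeR adjusted p = 0.963). The regulators of both steps were not called either. The eIF4E-binding protein 2-like (LOC100643384), which in mammals and flies holds eIF4E away from eIF4G when TOR signalling is low, had 584 to 790 CPM in founders and 323 to 565 CPM in diapausing queens, without overlap (log2 fold change 0.60 ± 0.38 SE, edgeR adjusted p = 0.150). The eIF2-alpha kinase 1-like protein (LOC100645626), whose mammalian counterpart lowers initiation when heme is short, had 131 to 404 and 118 to 276 CPM in the same groups (log2 fold change 0.61 ± 0.42 SE, edgeR adjusted p = 0.179). Without the shallow pair and Diapause replicate 1, the eIF4E-binding protein 2-like member was called as higher in founders (edgeR adjusted p = 0.00456).

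**Figure D2:**
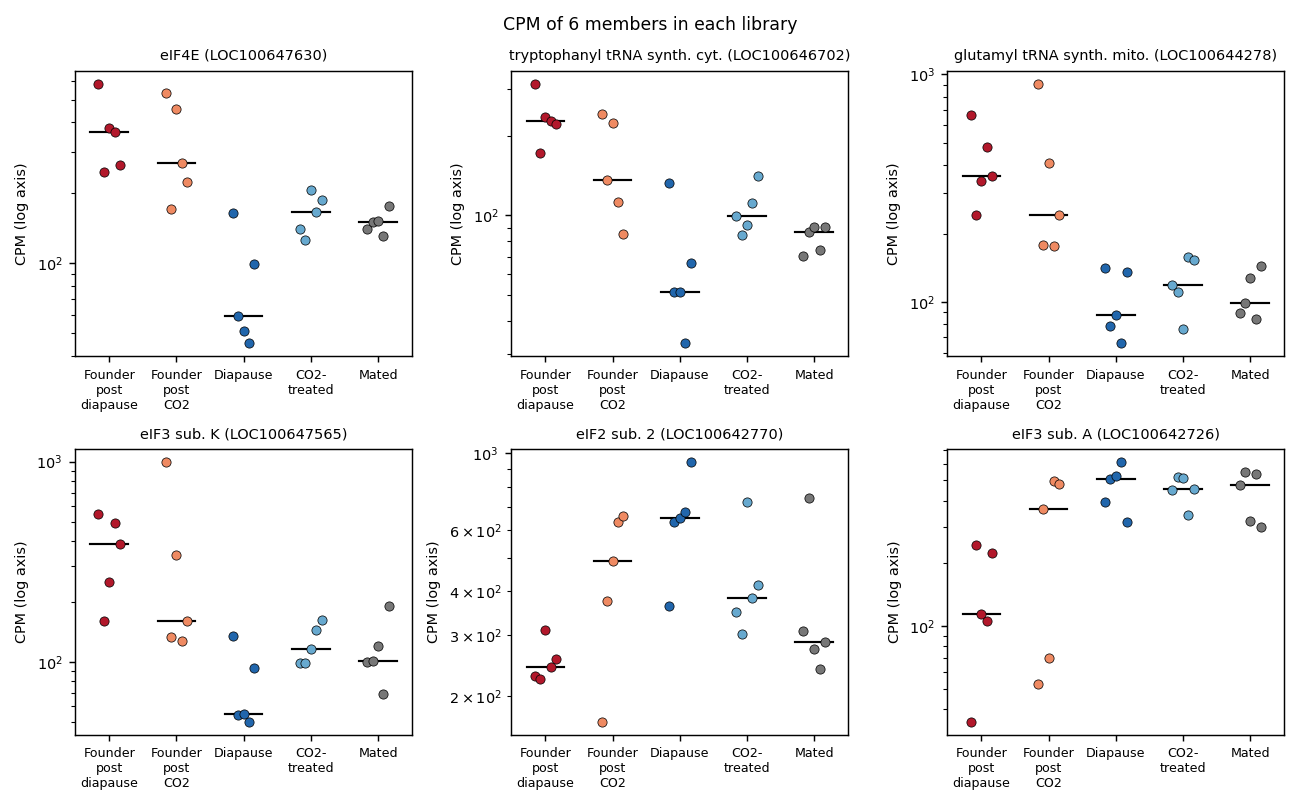
Each panel plots the CPM of a member in every library on a log axis, with points for the 5 replicates of a group in order and a line at the group's median. The eIF4E-like, tryptophanyl-tRNA synthetase, mitochondrial glutamyl-tRNA synthetase and eIF3 subunit K-like panels show all 5 Founder post diapause libraries above all 5 Diapause libraries, and the panels of eIF2 subunit 2-like and eIF3 subunit A-like show them below.

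All 9 cytosolic synthetases were called as higher in Founder post diapause over Diapause, with log2 fold changes from 0.67 to 2.17. With genetic line as a block 8 were called, all but the leucyl enzyme. The 2 largest fold changes, of the aspartyl and leucyl enzymes, rested on few reads. Tryptophanyl-tRNA synthetase (LOC100646702; scaffold Group5.1, 794647 to 797050), which charges the tRNA of tryptophan, had 314, 172, 236, 227 and 221 CPM in founders, against 132, 51.4, 51.2, 33.0 and 66.2 CPM in diapausing queens. The groups did not overlap, and Diapause replicate 1 again stood above the other 4 (log2 fold change 1.80 ± 0.33 SE, edgeR adjusted p = 7.91e-05). In Founder post CO2 queens it had 242, 136, 224, 112 and 85.4 CPM, against 99.8, 84.3, 92.1, 112 and 141.3 CPM in CO2-treated queens, with overlap and no call (log2 fold change 0.59 ± 0.32 SE, edgeR adjusted p = 0.147).

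Both chains of phenylalanyl-tRNA synthetase rose in Founder post diapause: the beta chain (LOC100650556) had 256 to 703 CPM in founders, against 150 to 269 CPM in diapausing queens (log2 fold change 1.14 ± 0.37 SE, edgeR adjusted p = 0.00789), and the alpha chain (LOC100646131) 94.9 to 149 CPM, against 56.6 to 105 CPM (log2 fold change 0.70 ± 0.23 SE, edgeR adjusted p = 0.00908). Arginyl-tRNA synthetase (LOC100646407) had 150 to 230 CPM in founders and 72.0 to 139 CPM in diapausing queens, and isoleucyl-tRNA synthetase (LOC100645986) had 412 to 551 and 212 to 406 CPM. In these 2 enzymes founders and diapausing queens did not overlap (log2 fold change 0.88 ± 0.24 SE, edgeR adjusted p = 0.00237 for arginyl; log2 fold change 0.67 ± 0.23 SE, edgeR adjusted p = 0.0109 for isoleucyl). Tyrosyl-tRNA synthetase (LOC100646241) and glycyl-tRNA synthetase (LOC100646675, listed without a compartment) rose by log2 0.71 ± 0.24 and 0.69 ± 0.26 SE (edgeR adjusted p = 0.0109 and 0.0181), with overlapping groups. The glycyl call was lost when Diapause replicate 5 or founder replicate 3 or 4 was left out.

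The 2 remaining cytosolic enzymes rested on few reads in 1 interval each, on the same scaffold. Aspartyl-tRNA synthetase (LOC100645809) had 10, 63, 55, 41 and 43 counts in Founder post diapause, against 7, 6, 12, 10 and 6 counts in Diapause replicates 1 to 5. As CPM these were 4.70, 20.1, 18.7, 10.4 and 11.9, against 2.04, 2.08, 4.80, 3.88 and 1.86, with founder replicate 1 inside the diapause range (log2 fold change 2.17 ± 0.56 SE, edgeR adjusted p = 0.00155). Leucyl-tRNA synthetase (LOC100646533) had 27.7, 2.87, 16.7, 6.37 and 5.54 CPM in founders and 2.91, 2.08, 2.40, 3.49 and 4.04 CPM in diapausing queens, with founder replicate 1 highest (log2 fold change 1.95 ± 0.76 SE, edgeR adjusted p = 0.0228), and was not called without that founder. In both enzymes CO2-treated replicate 3, a shallow library, had the highest CO2-treated value, 17.2 CPM for aspartyl and 34.4 CPM for leucyl.

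Of the 8 mitochondrial synthetases in Founder post diapause over Diapause, 4 rose, 1 fell and 3 were not called. Glutamyl-tRNA synthetase (LOC100644278; scaffold GroupUn1188, 739781 to 744473) had 665, 242, 340, 482 and 357 CPM in founders, against 140.7, 78.5, 88.1, 65.9 and 135 CPM in diapausing queens. The groups did not overlap, and all 11 of its intervals were higher in founders (log2 fold change 2.04 ± 0.40 SE, edgeR adjusted p = 0.000166). In Founder post CO2 queens it had 912, 179, 407, 176 and 242 CPM, against 119, 111, 76.5, 157 and 153 CPM in CO2-treated queens, again with no overlap (log2 fold change 1.63 ± 0.40 SE, edgeR adjusted p = 0.00606). An F test across the 5 groups called 28 members, beside 79% of all genes, and this enzyme had their smallest p (edgeR adjusted p = 4.15e-05).

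Methionyl-tRNA synthetase (LOC100652212), tyrosyl-tRNA synthetase (LOC100646848) and arginyl-tRNA synthetase (LOC100646371), all mitochondrial, rose by log2 1.35 ± 0.39, 1.27 ± 0.42 and 1.22 ± 0.42 SE (edgeR adjusted p = 0.00368, 0.00871 and 0.0109). The mitochondrial tyrosyl enzyme had 69.9 to 272 CPM in founders and 47.3 to 80.1 CPM in diapausing queens, and its call was lost without founder replicate 1. Seryl-tRNA synthetase (LOC100643513; scaffold GroupUn732, 222804 to 223953), which charges mitochondrial serine tRNAs, fell furthest of the members. It had 2.82, 6.06, 6.81, 2.29 and 5.54 CPM in Founder post diapause, against 6.41, 34.4, 47.6, 52.3 and 21.1 CPM in Diapause queens. Diapause replicate 1 lay inside the founder range and the other 4 diapausing queens far above it (log2 fold change -2.77 ± 0.57 SE, edgeR adjusted p = 0.000242). The aspartyl (LOC100651645), alanyl (LOC100650828) and asparaginyl (LOC100651749) enzymes were not called, with log2 fold changes of 0.53 ± 0.34, 0.66 ± 0.32 and 0.88 ± 0.45 SE, and all 3 were called as higher in founders once the shallow pair and Diapause replicate 1 were left out (edgeR adjusted p = 0.0173, 0.0365 and 0.00478).

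Elongation was represented by exchange factors, which recharge the tRNA carrier EF1A with GTP. Elongation factor 1-beta-like (LOC100649164; scaffold Group3.1, 186554 to 190021) had 3508, 950, 1973, 1132 and 902 CPM in Founder post diapause, against 943, 340, 319, 292 and 431 CPM in Diapause queens. The groups overlapped through Diapause replicate 1, which was near the founders, while the other 4 diapausing queens were lower (log2 fold change 1.86 ± 0.44 SE, edgeR adjusted p = 0.000822). Elongation factor 1-delta-like (LOC100645331) had 4351, 932, 1752, 1465 and 1121 CPM in founders, against 975, 827, 811, 754 and 980 CPM in diapausing queens. Founder replicate 1 stood far above the other founders, of which replicate 2 lay in the diapause range, and the call (log2 fold change 1.15 ± 0.40 SE, edgeR adjusted p = 0.0127) was lost without it.

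Of the mitochondrial factors, EF-Ts-like (LOC100644971), the exchange factor of the mitochondrial tRNA carrier, had 203 to 548 CPM in founders and 148 to 276 CPM in diapausing queens (log2 fold change 0.85 ± 0.36 SE, edgeR adjusted p = 0.0335). That call was lost without Diapause replicate 2, 3 or 4 or founder replicate 1, 3 or 4. The C12orf65-like release factor (LOC100643248), whose human counterpart frees stalled mitochondrial ribosomes, had 110 to 164 and 52.1 to 118 CPM (log2 fold change 0.88 ± 0.31 SE, edgeR adjusted p = 0.0123), a call lost without founder replicate 1. IF-2-like (LOC100651367), which brings the initiator tRNA to the mitochondrial ribosome, had 15.04, 35.7, 27.6, 41.3 and 39.9 CPM in founders, against 52.4, 75.0, 71.7, 44.6 and 68.0 CPM in diapausing queens. It fell with no overlap between the groups (log2 fold change -0.96 ± 0.31 SE, edgeR adjusted p = 0.00791).

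The pair of transcription proteins also moved apart. Negative elongation factor D-like (LOC100651610), a subunit of the complex that pauses RNA polymerase II, had 396 to 1063 CPM in Founder post diapause and 154 to 346 CPM in Diapause queens, with no overlap (log2 fold change 1.45 ± 0.32 SE, edgeR adjusted p = 0.000448). ELL2-like (LOC100650279), which speeds polymerase elongation, had 11.3, 59.4, 17.7, 14.0 and 38.3 CPM in founders, against 39.0, 144, 175, 137 and 86.0 CPM in diapausing queens. Diapause replicate 1 lay within the founder range (log2 fold change -2.04 ± 0.66 SE, edgeR adjusted p = 0.00760).

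Over the whole comparison, the founder and diapause libraries did not overlap in 12 of the 35 members, against 48.7% of all tested genes. Of the 28 calls, 22 were made with every library left out in turn. The 21 called members with 2 or more intervals had every interval in the direction of the gene in 20 cases, the exception being the cytosolic tyrosyl-tRNA synthetase with 7 of 8. Without the shallow pair and Diapause replicate 1, 32 members were called, 27 higher and 5 lower, beside 84.7% of all genes, 43.2% higher and 41.5% lower. Other values moved between the same groups. Germ line and ovary markers, 6 genes, summed to 483 to 5035 CPM in Founder post diapause and 573 to 1646 CPM in Diapause libraries, and 4 of them rose and 2 fell. Gut markers, 25 genes, summed to 6941 to 51950 CPM in founders and 2611 to 8806 CPM in Diapause libraries, with 16 higher and 1 lower. Of 9 fat body markers 7 fell. Muscle markers, 17 genes, summed to 11460 to 32420 CPM in founders and 15700 to 38180 CPM in Diapause libraries, with 6 higher and 9 lower. Neuron markers, 24 genes of which 23 were tested, summed to 2440 to 4229 CPM and 3127 to 4366 CPM in the same groups, with 5 higher and 12 lower. Hemocyte markers, 7 genes, summed to 1584 to 2687 CPM and 1894 to 2875 CPM, with 1 higher and 4 lower. Across all 3793 genes the log2 fold change had a Spearman correlation of -0.465 with counted length, and across the members of -0.245, a description over genes that share libraries. The median counted length was 2102 bp for the members and 2906 bp for all genes tested. It was 2241 bp for members that rose and 3160 bp for those that fell. The part of these in the result was not tested.

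**Figure D3:**
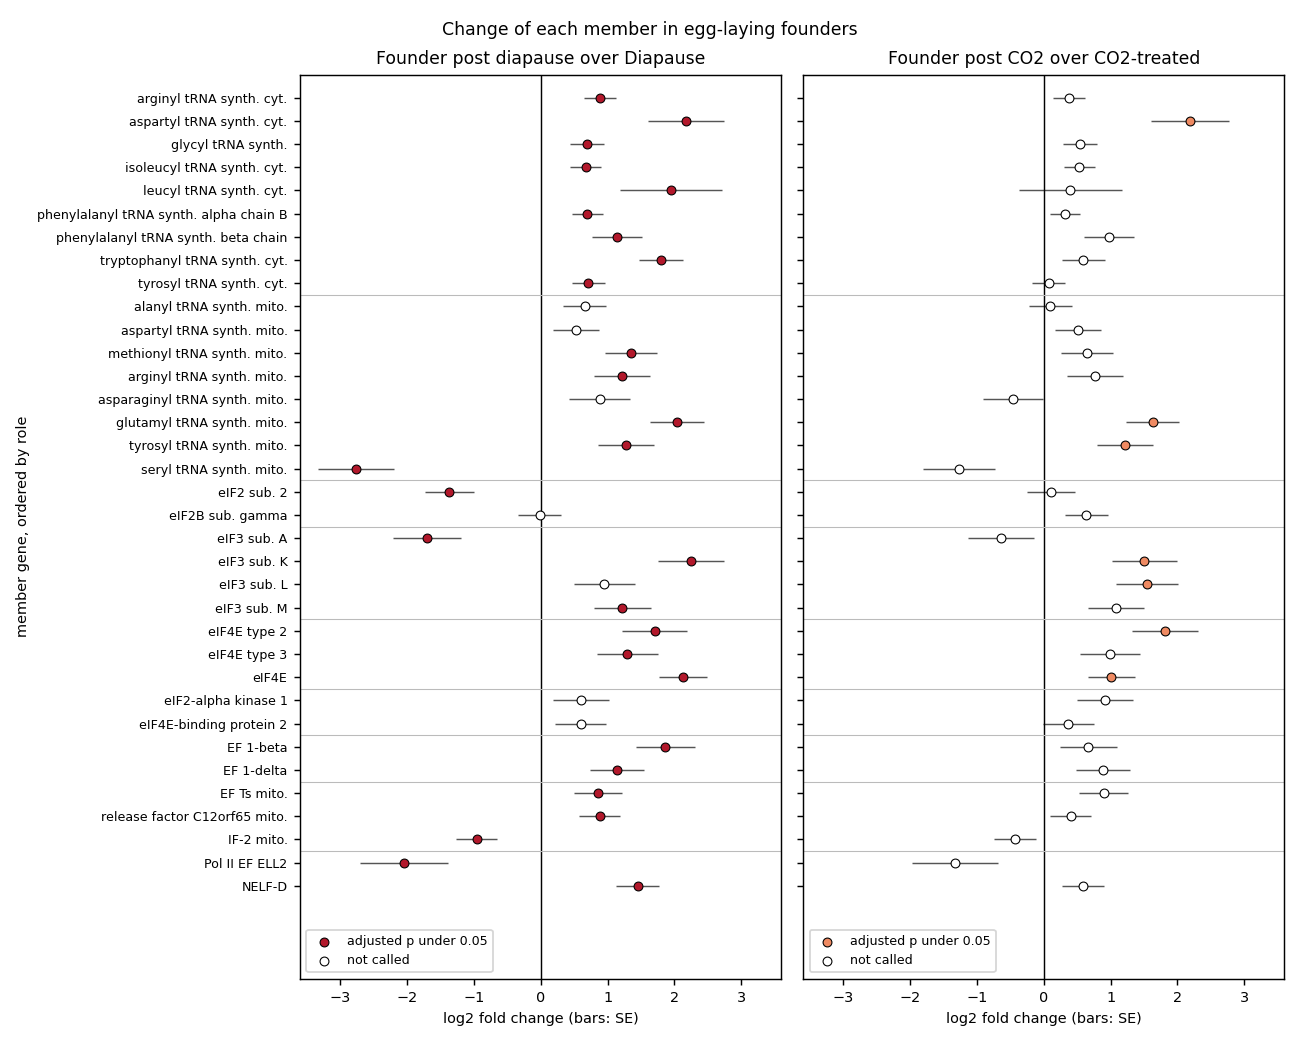
Points are log2 fold changes of each member with bars of 1 SE, for Founder post diapause over Diapause on the left and Founder post CO2 over CO2-treated on the right, and filled points passed an edgeR adjusted p of 0.05. On the left 23 filled points lie above 0 and 5 below, and on the right the 7 filled points all lie above 0.

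The comparison of Founder post CO2 with CO2-treated queens asks the same of the route without cold. Here 7 of 35 members rose, none fell, and 28 did not pass the test; 28.3% of all genes were called, 14.8% as higher and 13.6% as lower. The 7 were the mitochondrial glutamyl-tRNA and tyrosyl-tRNA synthetases, the cytosolic aspartyl-tRNA synthetase, eIF4E-like, eIF4E type 2-like, and eIF3 subunits K and L. An unadjusted p under 0.05 was reached by 17 members, 48.6%, beside 45.5% of all genes. The median log2 fold change was 0.59 for the members and 0.07 for all genes.

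Aspartyl-tRNA synthetase had 35.7, 5.57, 16.6, 15.2 and 19.7 CPM in Founder post CO2, against 1.88, 2.44, 17.2, 2.98 and 1.73 CPM in CO2-treated queens. The shallow CO2-treated replicate 3 lay among the founders, and founder replicate 1 was the highest (log2 fold change 2.19 ± 0.58 SE, edgeR adjusted p = 0.0102). eIF3 subunit L-like (scaffold Group11.2, 2725295 to 2727508), a peripheral subunit, had 1581, 188, 549, 243 and 302 CPM in founders, against 151, 139, 200, 237 and 255 CPM in CO2-treated queens. Founder replicate 1 was far above the rest and founder replicates 2 and 4 lay among the CO2-treated queens (log2 fold change 1.54 ± 0.46 SE, edgeR adjusted p = 0.0190). Subunit K-like had 996, 133, 340, 127 and 159 CPM in founders, against 98.8, 98.6, 116, 144 and 161 CPM in CO2-treated queens, with the same founder highest (log2 fold change 1.50 ± 0.49 SE, edgeR adjusted p = 0.0272). The mitochondrial tyrosyl enzyme had 418, 59.7, 174, 77.4 and 94.7 CPM in founders, against 51.5, 55.8, 87.5, 75.9 and 85.5 CPM in CO2-treated queens, with overlap (log2 fold change 1.21 ± 0.42 SE, edgeR adjusted p = 0.0351).

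Members that had fallen on the diapause route were not called on this one. eIF3 subunit A-like had 52.9, 366, 70.2, 495 and 481 CPM in Founder post CO2, against 452, 521, 512, 340 and 454 CPM in CO2-treated queens. Founders 1 and 3 were very low and the other 3 lay in the CO2-treated range (log2 fold change -0.64 ± 0.50 SE, edgeR adjusted p = 0.306). eIF2 subunit 2-like had 169, 376, 490, 634 and 657 CPM in founders, against 350, 302, 722, 382 and 418 CPM in CO2-treated queens, with overlap (log2 fold change 0.10 ± 0.36 SE, edgeR adjusted p = 0.828). The mitochondrial seryl-tRNA synthetase had 0.821, 7.74, 6.83, 12.7 and 14.9 CPM in founders, against 22.3, 20.2, 34.4, 14.1 and 16.3 CPM in CO2-treated queens (log2 fold change -1.27 ± 0.54 SE, edgeR adjusted p = 0.0758), and founder replicate 5 lay within the CO2-treated range.

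Groups did not overlap in 2 members, the glutamyl-tRNA and isoleucyl-tRNA synthetases, against 16% of all genes. The calls rested on few libraries: 2 members, the glutamyl and aspartyl enzymes, were called with every library left out in turn. The number called was 2 without founder replicate 1, 4 without founder replicate 3, 3 without CO2-treated replicate 1 or 2, 4 without Diapause replicate 5, 11 without founder replicate 2 and 12 without founder replicate 4. Calls among all genes dropped too, from 1075 of 3793 with every library to 591 of 3800 without CO2-treated replicate 1 and 561 of 3800 without CO2-treated replicate 2. The counts without a founder or Diapause library have no share of all genes beside them and are not read as results about the members. Left out alone, Founder post CO2 replicate 1, the highest founder in 21 members, also ended the calls of eIF3 subunits K and L, eIF4E type 2-like, eIF4E-like and the mitochondrial tyrosyl enzyme. In a fit of these 2 groups alone no member was called, beside 378 of 3722 genes. Without the shallow pair and Diapause replicate 1, 5 members were called, all higher, beside 17.7% of all genes, 9.18% higher and 8.5% lower. Of the 7 members called, 6 were called in Founder post diapause over Diapause (85.7% of the 7 and 21.4% of the 28), beside the 80.9% of all genes called there, the exception being eIF3 subunit L-like. Germ line and ovary markers summed to 1782 to 7756 CPM in Founder post CO2 and 426.1 to 914 CPM in CO2-treated libraries, with 4 of 6 genes higher. Of the fat body markers 1 rose and 4 fell, of 17 muscle markers 2 rose and 5 fell, and of 23 neuron markers 2 rose and 8 fell. Of 7 hemocyte markers 1 fell, and 6 of 25 gut markers rose. The log2 fold change here had a Spearman correlation with counted length of -0.441 across all genes and -0.206 across the members. The part of these in the result was not tested.

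The routes were compared by testing the change on the diapause route less the change on the CO2 route. No member was called, beside 2.43% of all genes, and 4 members, 11.4%, had an unadjusted p under 0.05, beside 27.4% of all genes: eIF2 subunit 2-like, the tryptophanyl-tRNA synthetase, eIF4E-like and the mitochondrial asparaginyl-tRNA synthetase. The difference was -1.47 ± 0.51 SE on the log2 scale for eIF2 subunit 2-like (edgeR adjusted p = 0.0810), 1.22 ± 0.45 for tryptophanyl-tRNA synthetase (edgeR adjusted p = 0.0997) and 1.12 ± 0.49 for eIF4E-like (edgeR adjusted p = 0.149). DESeq2 called 1 member, eIF2 subunit 2-like (DESeq2 adjusted p = 0.0454), beside 484 of all 3793 genes. Without the shallow pair and Diapause replicate 1 10 were called, 8 with a positive and 2 with a negative difference, beside 36.6% of all genes, 17.6% positive and 19.1% negative, and without Diapause replicate 1 alone 6, 17.1%, beside 26.5% of all genes. The count was 4 with Founder post CO2 replicate 1 left out, 2 with replicate 3 of that group left out, and 1 without the shallow pair. The last stood beside 246 of 3792 genes. The counts with a Founder post CO2 library left out have no share of all genes beside them and are not read as results about the members.

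Founders of the 2 routes were then compared directly, to see whether laying queens differ by route. In Founder post diapause over Founder post CO2 no member was called by edgeR or DESeq2. Of all genes, edgeR called 0% and DESeq2 called 5 of 3793. An unadjusted p under 0.05 was reached by 1 member, beside 7.2% of all genes. It was eIF2 subunit 2-like (log2 fold change -0.88 ± 0.36 SE, edgeR adjusted p = 0.616). This gene had 229, 223, 310, 243 and 256 CPM in Founder post diapause, against 169, 376, 490, 634 and 657 CPM in Founder post CO2 queens. The spread was wide in Founder post CO2 queens, whose replicate 1 lay below all founders of the other route while the other 4 lay above them. Log2 fold changes of the 35 members ran from -1.02 for eIF3 subunit A-like to 0.55 for the tryptophanyl-tRNA synthetase.

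The comparison of Diapause with Mated and with CO2-treated queens asks whether translation genes are lower in diapausing queens. These were also older, at 2.5 or 3 months against 5 to 10 days, so cold and age cannot be told apart here. No member was called in either comparison by edgeR or DESeq2 when all libraries were used. Of all genes, edgeR called 5.69% in Diapause over Mated and 6.43% in Diapause over CO2-treated. DESeq2 called 457 and 509 of the 3793 genes in the same comparisons. An unadjusted p under 0.05 was reached by 5 members in each, 14.3%, beside 22.4% of all genes over Mated and 25.4% over CO2-treated. The 2 comparisons share the diapause libraries, and Diapause replicate 1 enters both.

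eIF4E-like had 164, 59.4, 51.2, 45.4 and 98.8 CPM in Diapause, against 140, 126, 205, 166 and 186 CPM in CO2-treated and 140, 150, 151, 130 and 175 CPM in Mated queens. All but Diapause replicate 1 lay below every queen of the other groups. The log2 fold change was -0.83 ± 0.35 SE over Mated and -0.97 ± 0.35 SE over CO2-treated queens (edgeR adjusted p = 0.153 and 0.0912). Without the shallow pair and Diapause replicate 1 it was -1.29 over Mated and -1.38 over CO2-treated (edgeR adjusted p = 0.00421 and 0.00237).

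The mitochondrial asparaginyl-tRNA synthetase (LOC100651749) had 42.5, 12.5, 18.0, 5.43 and 11.5 CPM in Diapause, against 36.4, 39.0, 29.7, 41.2 and 37.3 CPM in CO2-treated and 33.8, 29.4, 35.7, 42.7 and 38.6 CPM in Mated queens. Diapause replicate 1 was as high as the other groups and the other 4 lay below all 10 of those queens. Its log2 fold change was -1.001 ± 0.46 SE over Mated with all libraries (edgeR adjusted p = 0.191) and -1.72 without the 3 libraries (edgeR adjusted p = 0.00931). Tryptophanyl-tRNA synthetase had 33.0 to 132 CPM in Diapause, against 70.0 to 90.3 CPM in Mated queens. Diapause replicate 1 lay above the Mated range and the other 4 diapausing queens below it. With all libraries the gene was not called. It was called once the 3 libraries, Diapause replicate 1 among them, were left out (log2 fold change -0.75, edgeR adjusted p = 0.0432).

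eIF2 subunit 2-like ran opposite, with 362, 632, 649, 674 and 942 CPM in Diapause, against 350, 302, 722, 382 and 418 CPM in CO2-treated and 307, 744, 272, 240 and 285 CPM in Mated queens. The highest CO2-treated and Mated values were those of the shallow libraries, CO2-treated replicate 3 and Mated replicate 2. Its log2 fold change over Mated was 0.82 ± 0.36 SE with all libraries (edgeR adjusted p = 0.174) and 1.21 without the shallow pair (edgeR adjusted p = 0.0259).

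Leucyl-tRNA synthetase had 2.91, 2.08, 2.40, 3.49 and 4.04 CPM in Diapause, against 8.34, 28.0, 7.61, 10.3 and 6.63 CPM in Mated queens. These groups did not overlap, on few reads, and the gene was not called (log2 fold change -1.91 ± 0.78 SE, edgeR adjusted p = 0.138).

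Without the same 3 libraries, 7 members were called in Diapause over Mated, 1 higher and 6 lower, beside 31.5% of all genes, of which 13.6% were higher and 17.9% lower. In Diapause over CO2-treated 12 were called, 1 higher and 11 lower, beside 36.5% of all genes, of which 15.9% were higher and 20.6% lower. In both comparisons the lower members included eIF4E-like, the tryptophanyl-tRNA synthetase, the mitochondrial asparaginyl-tRNA and arginyl-tRNA synthetases, the C12orf65-like release factor and the eIF4E-binding protein 2-like member, and the higher one was eIF2 subunit 2-like. Lower in the second comparison were also the cytosolic tyrosyl-tRNA and arginyl-tRNA synthetases, the mitochondrial methionyl-tRNA synthetase, negative elongation factor D-like and elongation factor 1-beta-like, the last by log2 fold change -1.27 (edgeR adjusted p = 0.0226). Without Diapause replicate 1 alone, 4 members, 11.4%, were lower than in Mated queens, beside 14.1% of all genes, and 6, 17.1%, were lower than in CO2-treated queens, beside 15.6%.

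**Figure D4:**
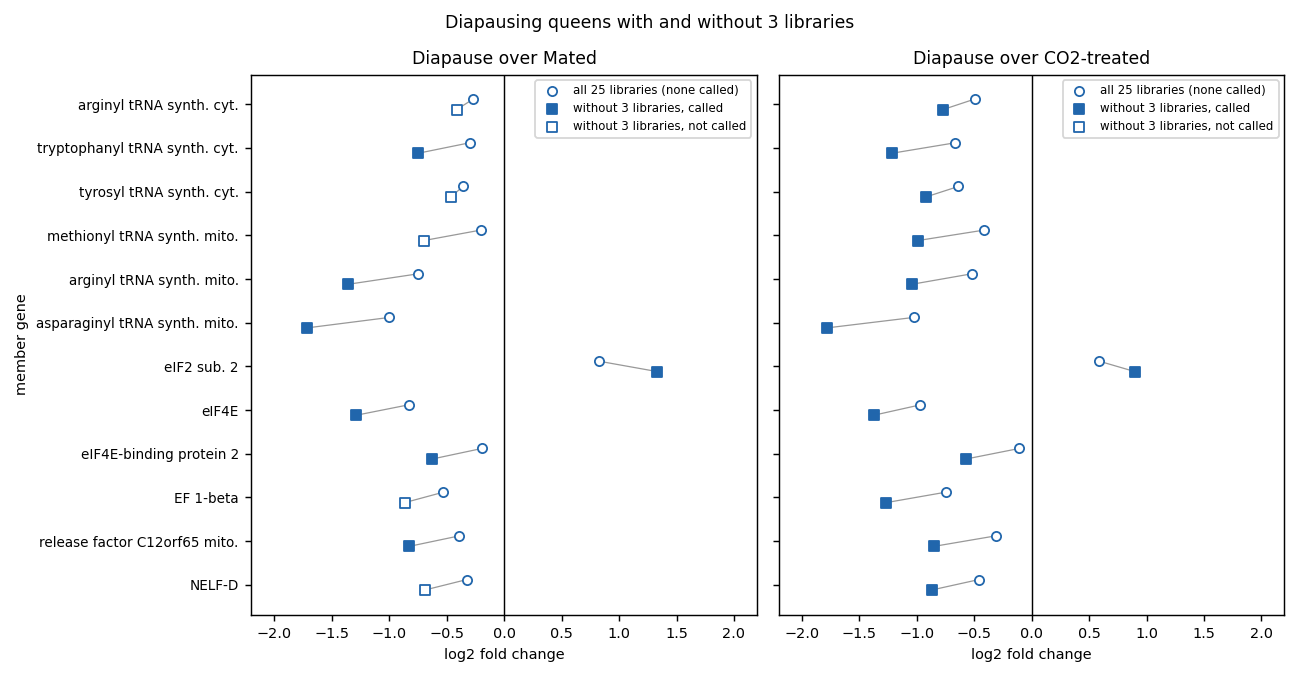
Points are log2 fold changes of the 12 members called in either comparison once the shallow pair and Diapause replicate 1 were left out, Diapause over Mated on the left and Diapause over CO2-treated on the right. Circles use all 25 libraries, where none was called, and squares leave out the 3, filled where an edgeR adjusted p under 0.05 was reached; 11 members lie below 0 and eIF2 subunit 2-like above it.

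CO2-treated and Mated queens, which were of the same age, were compared for what follows the gas within a day. No member was called by edgeR or DESeq2 in CO2-treated over Mated, and none had an unadjusted edgeR p under 0.05. Of all genes, edgeR called 0.395% and 4.53% had such a p, while DESeq2 called 42 of 3793. Log2 fold changes of the members lay between -0.79 and 0.36, with a median of 0.09. eIF4E-like, for example, had 164 ± 32.2 CPM in CO2-treated and 149 ± 16.8 CPM in Mated queens (SD, n = 5 each).

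Other genes of the pathway are read against all genes tested, of which 40.2% rose and 40.6% fell in Founder post diapause over Diapause, and 14.8% rose in Founder post CO2 over CO2-treated. Without the shallow pair and Diapause replicate 1, 43.2% of all genes rose and 41.5% fell post diapause, and 9.18% rose post CO2. Of the 15 tested in tRNA processing and modification, 12 rose and 1 fell post diapause and 0 rose post CO2 without these 3 libraries. With all libraries, 11 (73.3%) rose post diapause and 1 fell, and 3 of the 15 rose post CO2. The 1 that fell was the RtcB-like tRNA-splicing ligase (LOC100647213), which joins the cut ends of tRNAs during splicing. It had 77.2 ± 27.1 CPM in Founder post diapause and 363 ± 150 CPM in Diapause queens (SD, n = 5 each; log2 fold change -2.23 ± 0.33 SE, edgeR adjusted p = 1.59e-05). It was also called higher in Diapause than in Mated queens (1.68 ± 0.33 SE, edgeR adjusted p = 0.00328) and than in CO2-treated queens (1.96 ± 0.33 SE, edgeR adjusted p = 0.00175), comparisons that share the diapause libraries. The splicing endonuclease subunits Sen2-like (LOC100644121) and Sen34-like (LOC100645709) rose in Founder post diapause, by log2 2.10 ± 0.43 SE, edgeR adjusted p = 0.000245 and 1.70 ± 0.42 SE, edgeR adjusted p = 0.00110. So did the enzyme that adds the CCA end of tRNAs (LOC100648507; 1.61 ± 0.35 SE, edgeR adjusted p = 0.000376).

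Cytosolic ribosomal proteins, of which the table held 12, were called as higher in 5 cases (41.7%, near the share of all genes) and lower in 1 in Founder post diapause over Diapause, and higher in 4 (33.3%) in Founder post CO2 over CO2-treated. Without the shallow pair and Diapause replicate 1, 5 were higher and 1 lower post diapause, and 2 were higher post CO2. The smallest adjusted p-values were those of the pair of 40S ribosomal protein S29-like genes, LOC100646020 (3.78 ± 0.67 SE, edgeR adjusted p = 6.30e-05) and LOC100643570 (1.99 ± 0.55 SE, edgeR adjusted p = 0.00249), between which shared reads could be split. Of 16 ribosome biogenesis genes, 9 rose and 2 fell post diapause and 0 rose post CO2 without the same 3 libraries. With all libraries, 8 (50.0%) rose and 2 fell post diapause, and 3 (18.8%) rose post CO2. Those that fell were nucleolar protein 14-like (LOC100644487; -2.73 ± 0.56 SE, edgeR adjusted p = 0.000217) and the nucleolar GTP-binding protein 1-like gene (LOC100646576; -1.99 ± 0.43 SE, edgeR adjusted p = 0.000344). Nucleolar protein 14-like was low, with 1.79 ± 0.93 CPM in Founder post diapause and 11.75 ± 6.36 CPM in Diapause queens (SD, n = 5 each). It was also called higher in Diapause than in CO2-treated queens (log2 fold change 1.885 ± 0.53 SE, edgeR adjusted p = 0.0372). Genes picked by product name alone as signalling genes or co-factors of translation numbered 11. Post CO2, 2 (18.2%) of them rose with all libraries and 0 without the 3 libraries. Post diapause, 4 (36.4%) were higher and 7 (63.6%) lower, with all libraries and also without the 3. The lower ones included the ribosomal protein S6 kinase alpha-5-like kinase (LOC100647851), with 157 ± 57.6 CPM in Founder post diapause and 1095 ± 442 CPM in Diapause queens (SD, n = 5 each; log2 fold change -2.80 ± 0.44 SE, edgeR adjusted p = 2.64e-05). They also included the MAP kinase-interacting kinase 1-like protein (LOC100651498), whose mammalian counterpart phosphorylates eIF4E (-2.69 ± 0.60 SE, edgeR adjusted p = 0.000459), and the GCN1-like activator (LOC100651983), which in yeast relays the lack of charged tRNAs to an eIF2-alpha kinase (-1.60 ± 0.43 SE, edgeR adjusted p = 0.00209).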

How the data were processed

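Per the submitters' processing notes, reads were handled with Trimmomatic, TopHat and DESeq. The deposited table held raw counts of reads, made by the authors per exon-sized interval, with 1 column per library. The genome build, counting tool, strand setting and the rule that chose the intervals were not given in the sources used here, so totals are totals of the table and reads of genes on opposite strands could not be separated. Interval starts were read as counted from 0, since 5677 of 9842 intervals with a gene model then had a coding exon's length, against 262 otherwise; printed positions count from 1, and no build is named for them.

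Counts were summed per gene (3861 genes) in Python 3.11.15 with numpy 2.4.6 and pandas 2.3.3 and drawn with matplotlib 3.10.9. In R 4.3.3, edgeR 4.0.16 (limma 3.58.1) fitted all 25 libraries in 1 quasi-likelihood model with TMM factors, a term per group and 20 residual degrees of freedom. Low genes were dropped by filterByExpr (count at least 10, total at least 15): 3793 passed and 68 did not. The coefficient of variation between queens was 51.4%. Tests were two-sided contrasts with Benjamini-Hochberg adjustment over all tested genes and a threshold of 0.05, and SE is the absolute log2 fold change over the root of F. CPM use the TMM-scaled library totals. DESeq2 1.42.0, other scalings and filters, genetic line as a block and libraries left out were alternatives. The fit was checked on simulated data. Each library was 1 queen. The 35 members all matched the RefSeq gene table (assembly iyBomTerr1.2) by symbol; no sequence is printed.

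Members called in a pairwise comparison were named, and for each role the members with the smallest F test p and the highest level per kilobase; of other pathway lists, up to 5 called genes per comparison. The members, roles, gene lists and left-out libraries were chosen with earlier results of these data known, so patterns already seen are no independent evidence.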

Additional observations from a re-analysis of the deposited data

Results flagged for a closer look

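In 24 of the 175 sets of 5 replicates, 1 library lay far from the nearest other replicate relative to the range of its group, in 17 members. Chance flags about 1 in 20 such sets only where values are independent and normally distributed. CPM were not transformed here and the sets share the same 25 libraries, so the 24 are not read as an excess.

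Founder post CO2 replicate 1 was high in 6 members: eIF3 subunit L-like (1581 CPM), eIF3 subunit K-like (996), eIF4E type 2-like (266), and the mitochondrial aspartyl (411), methionyl (324) and alanyl (250) tRNA synthetases. Founder post CO2 replicate 3 was high in elongation factor 1-beta-like (2753 CPM) and the cytosolic leucyl-tRNA synthetase (19.8). Founder post diapause replicate 1 was high in elongation factor 1-delta-like (4351 CPM) and negative elongation factor D-like (1063).

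The shallow CO2-treated replicate 3 was high in ELL2-like (267 CPM), eIF2 subunit 2-like (722) and the cytosolic leucyl (34.4) and aspartyl (17.2) tRNA synthetases, and low in the eIF4E-binding protein 2-like member (116) and the mitochondrial aspartyl-tRNA synthetase (51.5). The shallow Mated replicate 2 was high in 3 of the same members, ELL2-like (274 CPM), eIF2 subunit 2-like (744) and the leucyl enzyme (28.0). Diapause replicate 1 was high in elongation factor 1-beta-like (943 CPM), the C12orf65-like release factor (118) and the mitochondrial arginyl-tRNA synthetase (28.0). Diapause replicate 5 was high in eIF3 subunit L-like (370 CPM) and the eIF2-alpha kinase 1-like protein (276). The cause was not tested in any of these.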

How the results depend on the processing

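Members called in Founder post diapause over Diapause numbered 25 to 32 under the 10 alternatives other than single libraries left out (28 as reported) and 23 to 30 with 1 library left out. The 25 came from a fit of these 2 groups, beside 2839 of 3721 genes, and the 32 without the 3 libraries, beside 3212 of 3790. Founder post CO2 over CO2-treated (7 as reported) gave 12 with DESeq2, 4 with genetic line as a replicate block, 0 in a fit of these 2 groups alone, and 2 to 12 with 1 library left out. Among all genes, DESeq2 called 1355 of 3793, the block 751 of 3793 and the fit of these 2 groups 378 of 3722. Diapause over Mated (0) gave 1 in a fit of its own groups, 1 without the 2 shallow libraries, 7 without these and Diapause replicate 1, and 0 to 4 with 1 library left out. Among all genes, the fit of its own groups called 102 of 3703, that without the shallow libraries 319 of 3792 and that without the 3 libraries 1192 of 3790. Diapause over CO2-treated (0) gave 12 without the 3 libraries and 0 to 6 with 1 left out. The route difference (0) gave 1 with DESeq2, 1 without the shallow pair, 10 without the 3 libraries and 0 to 6 with 1 left out. The F test (28) gave 20 to 30 with 1 library left out, and CO2-treated over Mated and the founder comparison stayed at 0 under each alternative run. Calls among all genes also moved with the library left out, so ranges without that share are not read as results about the members.

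Of 69 member results recomputed, 67 kept their direction. The exceptions were the eIF4E-binding protein 2-like member in Diapause over Mated, whose log2 fold change was 0.083 with genetic line as a block, and the leucyl-tRNA synthetase in Founder post CO2 over CO2-treated, between -0.10 and 1.97 with 1 library left out (below 0 without CO2-treated replicate 1 or Founder post CO2 replicate 3, highest without CO2-treated replicate 3); the cause was not tested. Lines were shared across groups, but libraries of a line did not deviate together (median r 0.0648 over 46 same-line pairs, 21 of them over 0.1; -0.0159 over 204 other pairs), so pairing was not used. With the block, Founder post diapause over Diapause gave 29 calls and the F test 26; the cytosolic leucyl-tRNA synthetase was not called there (0.0533 as edgeR adjusted p), so 8 of 9 cytosolic synthetases were. Depth limits the aspartyl, leucyl and mitochondrial seryl enzymes most. Upper-quartile scaling moved the median log2 fold change of all genes in Diapause over CO2-treated to -0.112.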
